A study of Homo sapiens with 9 samples.

Results

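The NR4A genes *NR4A1*, *NR4A2* and *NR4A3* encode the family of orphan nuclear receptors that is also known by the names Nur, Nurr and NOR. These 3 genes were taken as a whole family from 60664 genes listed in the count data. The family was chosen because earlier values of the same samples had shown a large fall of *NR4A1* at the higher viscosity, with the values of all 3 groups in view. The levels and fold changes of the members are therefore given as a description, and not as a test. Where an adjusted p of a member is mentioned below, nothing is read from it. The RNA came from MDA-MB-231, a human line of triple-negative breast cancer cells, in 3 groups of 3 samples that were all collected on day 6. Scramble control (SC) cells, labelled WT and carrying a scramble RNA, were kept at 0.77 cP, the viscosity of ordinary culture medium, or at 8 cP. The third group was TRPV4 knockdown cells at 8 cP, which carried a short hairpin RNA against the cation channel TRPV4 (shTRPV4). By the study's methods, the hairpins were delivered by lentivirus from a plasmid with puromycin resistance, the shTRPV4 line of most experiments rests on 1 hairpin, and the medium of 8 cP was made with methylcellulose. Viscosity and methylcellulose, and the hairpin and the loss of TRPV4, cannot be told apart here, and shTRPV4 cells at 0.77 cP were not analysed here. The comparison of SC cells asks which genes respond to 6 days at higher viscosity, and that of shTRPV4 with SC cells at 8 cP asks which levels at that viscosity depend on TRPV4.

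NR4A receptors have no established natural ligand, since bulky side chains fill the pocket where other receptors of the superfamily bind hormones, so that their activity is set largely by how much of the protein is made. They are immediate early genes, transcribed quickly and for a short time when calcium, cyclic AMP (cAMP), growth factors or stress reach the nucleus through CREB, MEF2 and serum response factor. The proteins bind DNA as monomers at the NBRE (AAAGGTCA) or as dimers, and NR4A1 and NR4A2 also pair with retinoid X receptors. NR4A1 is known from T-cell receptor signalling and cell death, NR4A2 from dopamine neurons, and NR4A3 from fusion genes in chondrosarcoma.

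*NR4A1* (ENSG00000123358) is a plus-strand gene of chromosome 12 that spans 52022832 to 52059507 (GRCh38, GENCODE release 44), with 22 transcripts and a MANE Select transcript of 7 exons. *NR4A2* (ENSG00000153234) is a minus-strand gene of chromosome 2 that spans 156324437 to 156342348, with a MANE Select transcript of 8 exons. *NR4A3* (ENSG00000119508) is a plus-strand gene of chromosome 9 that spans 99821855 to 99866891, with a MANE Select transcript of 8 exons. Since cAMP and calcium act on this family through CREB, the RefSeq promoters (GRCh38.p14) were searched on both strands for the CRE half-site TGACG, the full CRE TGACGTCA, the NBRE, the AP-1 site TGANTCA and the CArG box. Promoters matched 2 of the 3 members, *NR4A1* and *NR4A3*. The *NR4A3* promoter is shown because it held 4 CRE half-sites, which are in capitals in this stretch of the plus strand at chr9:99821755-99821869, upstream of the MANE Select start at 99821885.
*NR4A3*: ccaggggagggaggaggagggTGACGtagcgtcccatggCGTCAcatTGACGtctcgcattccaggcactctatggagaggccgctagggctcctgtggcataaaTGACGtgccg
Their first bases were at positions -109, -91, -83 and -25 relative to that start, and the second of them is on the minus strand. At least 1 CRE half-site was found in 24.6% of all 35116 RefSeq promoters of the same length, and at least 4 in 0.313% of them. *NR4A1* had 2 promoter windows, at the starts of transcripts 28.6 and 13.7 kb upstream of its MANE Select start, and neither held any of these motifs. No window covered the MANE Select start of *NR4A1* itself, so that promoter was not searched. The full CRE was found in 1.85% of all promoters, the NBRE in 1.22%, the AP-1 site in 7.71% and the CArG box in 1.29%. A full CRE contains CRE half-sites, so these shares overlap.

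Library totals ran from 64571681 to 103518036 counts. Levels are given in CPM, counts scaled to the library total after TMM adjustment, and a floor of 3 counts, which covers counting error only, lay at or below 0.0468 CPM in every sample. *TRPV4*, the target of the hairpin, had 64, 45 and 24 counts in the SC samples at 8 cP and 7, 1 and 13 counts in the shTRPV4 samples. This gave a log2 fold change of -2.51 (standard error 0.49) and an adjusted p of 0.00219 by the quasi-likelihood test of edgeR, adjusted by the Benjamini-Hochberg method over 18264 genes. Of the markers of the line, *VIM*, *CD44* and *KRT18* were abundant and the hormone receptor genes *ESR1* and *PGR*, which triple-negative cells lack, had at most 4 counts in any sample. *CDH1* and *EPCAM* had also been listed as low or absent in this line. *CDH1* had at most 12 counts in any sample. *EPCAM* went against the listing, with 19 ± 0.174 and 18.1 ± 1.08 CPM in SC cells at 0.77 and 8 cP (SD, n = 3 each). In shTRPV4 cells it had 18.1 ± 1.05 CPM (SD, n = 3). *ERBB2*, the receptor that is not amplified in such cells, had 93.2 ± 3.24, 95.5 ± 1.16 and 93.3 ± 1.02 CPM in the SC line at 0.77 and 8 cP and in the knockdown line, in that order (SD, n = 3 each). Among markers of other cell types, *PTPRC* reached at most 0.176 CPM and *ALB* at most 5 counts. *PECAM1* fell from 5.04 ± 1.14 to 2.75 ± 0.298 CPM (SD, n = 3 each) between 0.77 and 8 cP in SC cells (edgeR adjusted p = 0.00159), and *COL1A1* fell from 6.40 ± 0.428 to 5.03 ± 0.226 CPM (SD, n = 3 each, edgeR adjusted p = 0.0117), a call lost without replicate 1 at 0.77 cP (adjusted p = 0.0743) or replicate 2 at 8 cP (adjusted p = 0.0539). These 2 of 4 markers moved in the same direction as the NR4A genes, and their part in that result was not tested. The share of mitochondrial counts was between 2.04% and 2.58% in SC samples and between 3.28% and 3.40% in shTRPV4 samples. Its part in the differences between shTRPV4 and SC cells was not tested.

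All 3 NR4A genes were far lower at 8 cP than at 0.77 cP in SC cells. *NR4A1* had 3612, 2290 and 3228 counts at 0.77 cP and 111, 88 and 87 counts at 8 cP, which is 38.3, 35.7 and 31.4 CPM against 1.12, 0.911 and 0.958 CPM. The lowest sample at 0.77 cP thus stood far above the highest sample at 8 cP. The mean was 35.1 ± 3.5 CPM (SD, n = 3) at 0.77 cP and 0.997 ± 0.111 CPM (SD, n = 3) at 8 cP, a 35.2-fold lower level with a log2 fold change of -5.13 (standard error 0.12). This was the lowest log2 fold change of all 18264 genes tested. In bulk RNA, a smaller number of cells that express a gene and less RNA in each cell cannot be told apart.

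*NR4A3* had the next largest difference within the family and the lowest level. It had 335, 244 and 479 counts at 0.77 cP and 44, 32 and 28 counts at 8 cP in SC cells, or 3.55, 3.8 and 4.66 CPM against 0.445, 0.331 and 0.308 CPM. All samples were above the floor of 3 counts, and the groups did not overlap. The mean was 4.0 ± 0.579 CPM at 0.77 cP and 0.362 ± 0.0731 CPM at 8 cP (SD, n = 3 each), 11.1-fold lower, with a log2 fold change of -3.46 (standard error 0.19), rank 9 from the lowest.

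*NR4A2* had the smallest difference of the 3 genes. Its counts were 1572, 1349 and 1535 at 0.77 cP and 373, 355 and 264 at 8 cP in SC cells, or 16.7, 21.0 and 14.9 CPM against 3.77, 3.67 and 2.91 CPM. These samples did not overlap either. The mean was 17.5 ± 3.14 CPM at 0.77 cP and 3.45 ± 0.473 CPM at 8 cP (SD, n = 3 each), 5.08-fold lower, with a log2 fold change of -2.34 (standard error 0.13), rank 32 from the lowest. All 3 members had an edgeR adjusted p below the threshold of 0.05 with a lower level at 8 cP, beside 9.69% of all genes tested that were lower and 9.57% that were higher by the same rule. Nothing is read from this count, because the genes were selected on these values.

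**Figure D1:**
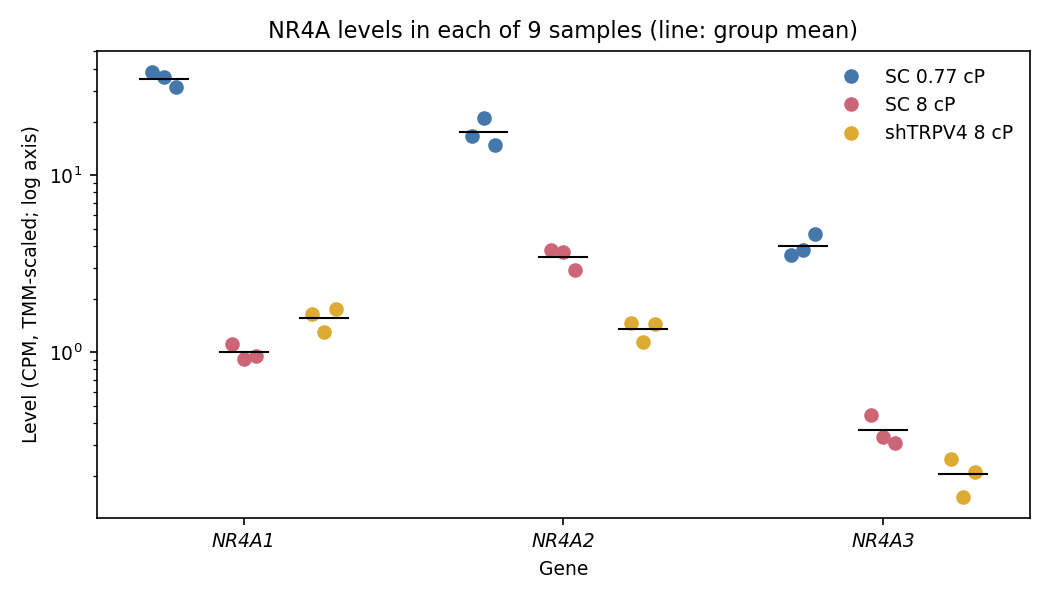
Levels of *NR4A1*, *NR4A2* and *NR4A3* in CPM on a log axis, with 1 point per sample (3 samples a group, coloured by group) and a line at the group mean. For each gene the samples of SC cells at 0.77 cP lie above all other samples, and among the samples at 8 cP shTRPV4 cells are the higher group for *NR4A1* and the lower group for *NR4A2* and *NR4A3*.

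At 8 cP, shTRPV4 cells differed from SC cells in opposite directions for different members. *NR4A1* had 151, 102 and 158 counts in shTRPV4 cells, or 1.65, 1.30 and 1.75 CPM, and each of these was above the highest SC sample at 8 cP (1.12 CPM). The mean of 1.57 ± 0.233 CPM (SD, n = 3) was 1.57-fold higher than in SC cells at 8 cP, with a log2 fold change of 0.66 (standard error 0.14). It stayed 22.4-fold lower than in SC cells at 0.77 cP (log2 fold change -4.48, standard error 0.11).

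*NR4A2* had 135, 90 and 131 counts in shTRPV4 cells, or 1.47, 1.15 and 1.45 CPM, all below the lowest SC sample at 8 cP (2.91 CPM). The mean of 1.36 ± 0.18 CPM (SD, n = 3) was 2.54-fold lower than in SC cells at 8 cP, with a log2 fold change of -1.34 (standard error 0.15), and 12.9-fold lower than in SC cells at 0.77 cP (log2 fold change -3.68, standard error 0.15). *NR4A2* was thus the member with the largest difference between the cell lines at 8 cP, at rank 160 from the lowest of 18264 genes.

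*NR4A3* had 23, 12 and 19 counts in shTRPV4 cells, or 0.251, 0.153 and 0.210 CPM, and the highest of these lay below the lowest SC sample at 8 cP (0.308 CPM). The mean of 0.205 ± 0.0491 CPM (SD, n = 3) was 1.76-fold lower than in SC cells at 8 cP, with a log2 fold change of -0.81 (standard error 0.26). Against SC cells at 0.77 cP it was 19.6-fold lower (log2 fold change -4.27, standard error 0.21). The adjusted p of the difference between the lines at 8 cP was above the threshold in 6 of 15 other ways of fitting. Among these were the fits without replicate 1 or 2 of SC cells at 8 cP (log2 fold change -0.63 and -0.87) and without replicate 2 or 3 of shTRPV4 cells (-0.65 and -0.82). Nothing is read from this adjusted p in any of the fits, because the genes were selected on these values.

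By the edgeR rule, 1 member was called higher and 2 were called lower in shTRPV4 cells at 8 cP than in SC cells at 8 cP, beside 9.02% of all genes called higher and 11.0% called lower. Against SC cells at 0.77 cP all 3 were called lower, beside 20.4% of genes called higher and 22.0% called lower, and nothing is read from these counts. The comparisons share samples: each of the 3 groups enters 2 of the 3 comparisons. All 3 genes were thus highest in SC cells at 0.77 cP. At 8 cP, SC cells held the lowest level of *NR4A1* and the middle level of *NR4A2* and *NR4A3*, and the samples of neighbouring groups in these orders did not overlap for any of the 3 genes. The share of all genes tested that separate in this way is not given here, and nothing is read from the separation. With 3 samples a group it also occurs in genes that were not called, such as *CREB1* between the lines at 8 cP.

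**Figure D2:**
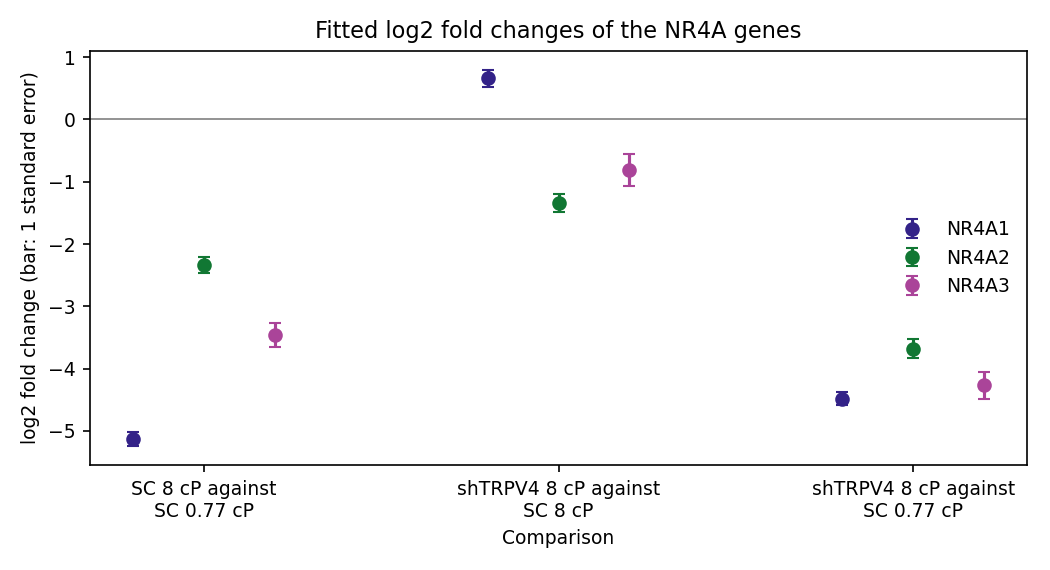
Fitted log2 fold changes of the 3 NR4A genes (points) with 1 standard error on each side (bars) in the 3 comparisons. SC cells at 8 cP against 0.77 cP gave -5.13, -2.34 and -3.46, and shTRPV4 against SC cells at 8 cP gave 0.66, -1.34 and -0.81 for *NR4A1*, *NR4A2* and *NR4A3*.

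Levels of different genes were compared per kilobase of the union of their exons. On this scale the family summed to 9.72 ± 0.98 CPM per kb in SC samples at 0.77 cP, 1.03 ± 0.131 CPM per kb in those at 8 cP and 0.577 ± 0.082 CPM per kb in shTRPV4 samples (SD, n = 3 each). *NR4A1* made up 49.6 ± 3.55%, 13.3 ± 1.58% and 37.2 ± 1.06% of that sum in these groups (SD, n = 3 each). *NR4A2* made up 43.7 ± 3.9%, 81.2 ± 2% and 57.3 ± 0.809% in the same order (SD, n = 3 each), and *NR4A3* between 5.52% and 6.63% on average in each group. The family at 8 cP in SC cells therefore consisted mostly of *NR4A2* RNA, and that in shTRPV4 cells was more evenly divided between *NR4A1* and *NR4A2*.

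The per-kilobase ratio of *NR4A1* to *NR4A2* was 1.29, 0.957 and 1.19 in the samples of SC cells at 0.77 cP. It was 0.168, 0.140 and 0.186 in those of SC cells at 8 cP, and 0.630, 0.639 and 0.680 in those of shTRPV4 cells. The 3 groups did not overlap in this ratio, and at 0.77 cP it was above 1 in 2 of 3 samples and below 1 in the other. The ratio is made from the values on which the genes were selected, so nothing is read from this separation. Which of both genes was higher depended on the length used, because many *NR4A1* transcripts are much shorter than the union of its exons (7295 bases, against 2485 bases of its MANE Select transcript). With MANE Select lengths, a choice added after the values had been seen, the share of *NR4A1* was 71.0%, 27.6% and 59.6% in the 3 groups, and the ratio was 2.37 or more at 0.77 cP, 0.460 or less in SC cells at 8 cP and between 1.56 and 1.69 in shTRPV4 cells. With the longest transcript of each gene, the ratio was 1.65, 1.22 and 1.51 in SC cells at 0.77 cP. It was 0.214, 0.178 and 0.237 in SC cells at 8 cP, and 0.803, 0.814 and 0.866 in shTRPV4 cells. The order of the groups was the same with each of these lengths.

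**Figure D3:**
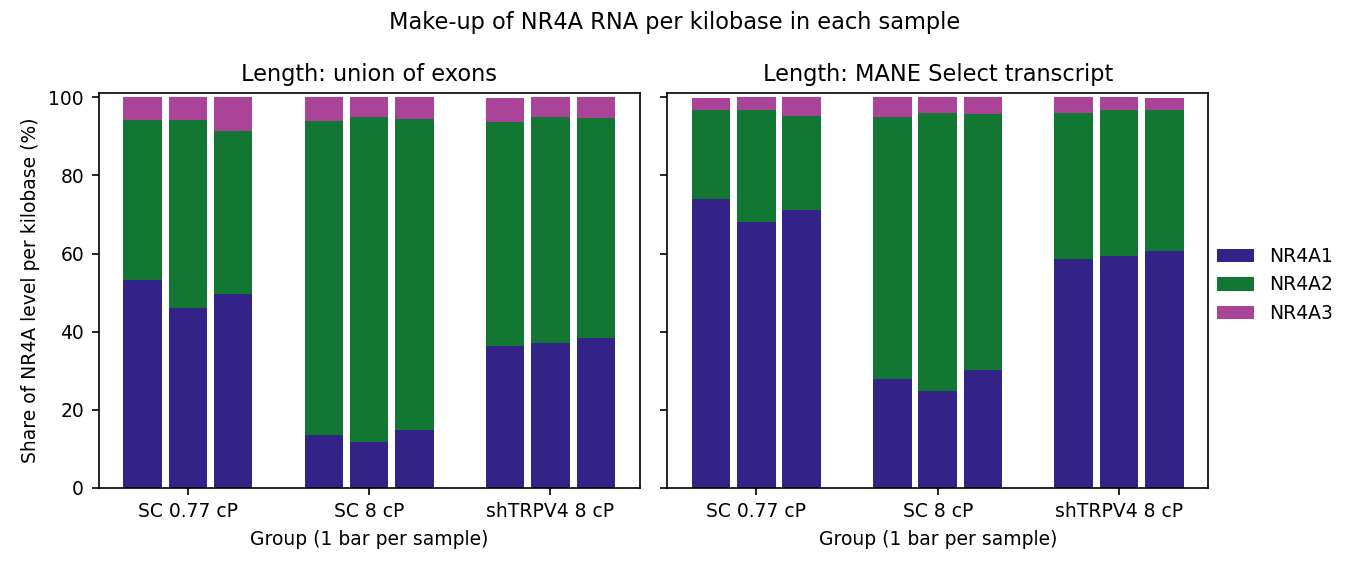
Share of each NR4A gene (colours) in the summed NR4A level per kilobase, in percent, with 1 bar per sample and 3 samples a group, for the union of exons (left) and the MANE Select transcript (right). With the union of exons *NR4A2* takes most of each bar in SC cells at 8 cP (81.2% on average) and *NR4A1* has its smallest share there (13.3%).

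*NR4A1* shares 754 exon bases, 10.3% of its union, with *NR4A1AS* on the other strand. The strand option of the counting is not given in the sources used here, but *NR4A1AS* had at most 9 counts in any sample. Of the other genes within 100 kb of *NR4A1*, *ATG101*, a subunit of the kinase complex that starts autophagy, fell from 41.6 ± 0.891 to 34.6 ± 1.26 CPM (SD, n = 3 each) between 0.77 and 8 cP in SC cells (log2 fold change -0.26, edgeR adjusted p = 0.00203). *ACVR1B*, an activin receptor, had 22.5 ± 1.33 and 23.6 ± 0.77 CPM (SD, n = 3 each, edgeR adjusted p = 0.477). Near *NR4A2*, the mitochondrial glycerol phosphate dehydrogenase gene *GPD2* rose at 8 cP in SC cells (log2 fold change 0.17, edgeR adjusted p = 0.00981) and was lower in shTRPV4 than in SC cells at 8 cP (log2 fold change -0.29, edgeR adjusted p = 0.000148). Near *NR4A3*, the autophagosomal syntaxin gene *STX17* had a log2 fold change of 0.07 between viscosities (edgeR adjusted p = 0.377) and was higher in shTRPV4 cells (log2 fold change 0.19, edgeR adjusted p = 0.0182). Without replicate 1 or 2 of SC cells at 8 cP, or replicate 1 or 2 of shTRPV4 cells, its call was lost, with adjusted p-values from 0.0612 to 0.0926. *ACVRL1*, *TAMALIN* and ENSG00000237461 had at most 19 counts in any sample and were not called in either of these 2 comparisons.

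The gene lists that follow were written from general knowledge with earlier results of these samples known. Each is described by its counts and its median log2 fold change, which was -0.0065 over all genes for SC cells at 8 cP against 0.77 cP and 0.0006 for shTRPV4 against SC cells at 8 cP. Of 41 genes for upstream regulators of NR4A transcription, such as CREB, MEF2, calcineurin, MAP kinases and class IIa deacetylases, 40 were tested. At 8 cP in SC cells 4 were called higher (10%) and 3 lower (7.5%), close to the shares over all genes (9.57% and 9.69%), and the median was -0.011. Nothing is read from these counts about the list, and the values that follow describe single genes. *MEF2D*, a factor through which calcium acts on *NR4A1*, fell from 75.8 ± 0.895 to 60.8 ± 2.1 CPM (SD, n = 3 each, log2 fold change -0.32, edgeR adjusted p = 0.000389). The deacetylase *HDAC5*, which binds MEF2, fell (log2 fold change -0.38, edgeR adjusted p = 0.00218), as did the kinase *MAPK3* (-0.33, edgeR adjusted p = 0.002), and the protein kinase A subunit *PRKACB* rose (0.27, edgeR adjusted p = 0.00348). *CREB1* itself had 57.0 ± 0.829 CPM at 0.77 cP, 58.7 ± 0.914 CPM at 8 cP and 56.6 ± 1.1 CPM in shTRPV4 cells (SD, n = 3 each), and it was not called. Without replicate 1 of SC cells at 0.77 cP, or without replicate 3 of those at 8 cP, the number of calls was 4 in place of 7, and the 4 genes named as called kept their calls in the 15 other fits. All fold changes of this list lay between -0.38 and 0.27 on the log2 scale, while those of the NR4A genes lay between -5.13 and -2.34. The NR4A genes were selected on such values, so nothing is read from this contrast.

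In shTRPV4 against SC cells at 8 cP, 2 upstream regulators were called higher (5%) and 6 lower (15%), beside 9.02% and 11.0% of all genes, with a median of -0.017. The calcineurin subunit *PPP3CB* was lower (log2 fold change -0.26, edgeR adjusted p = 0.000403), and so was *HDAC4* (-0.37, edgeR adjusted p = 0.00121). *HDAC9* was higher (0.42, edgeR adjusted p = 0.00047), as was *ELK3*, a partner of serum response factor (0.23, edgeR adjusted p = 0.00727). Leaving out replicate 1 or 2 of SC cells at 8 cP lowered the 8 calls to 5 and 4, and ended none of those named here.

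Of 21 other genes that cAMP signalling is known to induce, 18 were tested. At 8 cP in SC cells 14 of 18 (77.8%) were called lower and 0 higher by edgeR, beside 9.69% and 9.57% of all genes, with a median log2 fold change of -0.843. *FOSB*, a subunit of AP-1, fell from 21.9 ± 1.92 to 1.00 ± 0.177 CPM (SD, n = 3 each, log2 fold change -4.45, edgeR adjusted p = 6.81e-13). *ATF3*, a stress-induced factor of the CREB family, fell from 73.8 ± 6.3 to 13.1 ± 0.2 CPM (SD, n = 3 each, log2 fold change -2.50, edgeR adjusted p = 2.35e-12). *DUSP1*, a phosphatase that switches MAP kinases off, fell from 249 ± 14.4 to 53.0 ± 6.66 CPM (SD, n = 3 each, log2 fold change -2.23, edgeR adjusted p = 1.81e-10), and *GEM*, a small GTP-binding protein that restrains calcium channels, fell by 1.33 on the log2 scale (edgeR adjusted p = 1.62e-10). The 4 members not called were *CREM*, *PDE4B*, *PPARGC1A* and *BDNF*, with log2 fold changes of 0.07, -0.22, 0.08 and -0.12. *BTG2* (log2 fold change -0.33, edgeR adjusted p = 0.0491) lost its call in 11 of 15 other fits, with adjusted p-values up to 0.184 when replicate 2 of SC cells at 0.77 cP was left out. Several of these genes are immediate early genes like the NR4A family, and some were known to be low from the earlier results. Nothing is therefore read from the counts of this list in either comparison.

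In shTRPV4 against SC cells at 8 cP, 8 of the 18 cAMP-responsive genes (44.4%) were called lower and 0 higher by edgeR, beside 11.0% and 9.02% of all genes, with a median of -0.265. The cAMP phosphodiesterase *PDE4D* had 21.6 ± 0.471 CPM in SC and 14.3 ± 0.759 CPM in shTRPV4 cells (SD, n = 3 each, log2 fold change -0.59, edgeR adjusted p = 4.38e-06). *GEM* was lower (-0.43, edgeR adjusted p = 6.68e-05), as were *PDE4B* (-0.63, edgeR adjusted p = 0.000152) and *RGS2*, a regulator of G-protein signalling (-0.62, edgeR adjusted p = 0.00105). *FOSB* had 0.976 ± 0.0727 CPM in shTRPV4 cells (SD, n = 3), and the log2 fold change against SC cells at 8 cP was -0.04 (standard error 0.14, edgeR adjusted p = 0.897). Among the RefSeq promoters of this list, 18 of 44 (40.9%) held a CRE half-site, beside 24.6% of all promoters. A gene can have more than 1 promoter, so these are not counts of genes, and they were not limited to tested genes. The list was written from general knowledge of genes that cAMP induces, so nothing is read from this share.

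Of 30 described NR4A targets, 17 were tested, and the other 13, among them *POMC*, *CYP17A1*, *FASLG* and *PDCD1*, had at most 8 counts in any sample. At 8 cP in SC cells 1 target was called higher (5.88%) and 2 lower (11.8%), near the shares over all genes (9.57% and 9.69%), with a median log2 fold change of -0.024. *SKP2*, a ubiquitin ligase subunit of the cell cycle, rose from 26.1 ± 2.08 to 38.2 ± 2.79 CPM (SD, n = 3 each, log2 fold change 0.55, edgeR adjusted p = 0.000144). *VCAM1*, a cell adhesion molecule, fell from 8.46 ± 1.61 to 3.29 ± 0.541 CPM (SD, n = 3 each, log2 fold change -1.36, edgeR adjusted p = 0.000244). The isocitrate dehydrogenase *IDH1* fell (log2 fold change -0.30, edgeR adjusted p = 0.0198), a call that was lost without replicate 1 or 2 of SC cells at 0.77 cP (adjusted p = 0.0891 and 0.121) or without replicate 1 or 3 of SC cells at 8 cP (adjusted p = 0.0571 and 0.0899). The other 14 targets tested were not called, *CCND1* and *BIRC5* among them, and 5 targets were called without replicate 3 of SC cells at 0.77 cP.

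In shTRPV4 against SC cells at 8 cP, 3 targets were called higher (17.6%) and 2 lower (11.8%), beside 9.02% and 11.0% of all genes, with a median of -0.111. *SKP2* was higher again, with 38.2 ± 2.79 CPM in SC and 49.9 ± 3.38 CPM in shTRPV4 cells (SD, n = 3 each, log2 fold change 0.39, edgeR adjusted p = 0.00105). *PDK4*, a kinase that restrains pyruvate oxidation, was lower (-0.52, edgeR adjusted p = 0.0149), but not without replicate 3 of SC cells at 8 cP (adjusted p = 0.0824) or replicate 2 of shTRPV4 cells (adjusted p = 0.0512). The cyclin *CCND2* (-0.66, edgeR adjusted p = 0.0477) lost its call in 7 of 15 other fits, with adjusted p-values up to 0.195 without replicate 2 of SC cells at 8 cP. The groups overlapped for *CCND2*. The number of calls among targets was 2 without replicate 2 of shTRPV4 cells, and 3 without replicate 3 of these, without replicate 1 or 2 of SC cells at 0.77 cP, or without any 1 replicate of SC cells at 8 cP. An NBRE was found in 4 of 26 RefSeq promoters of the targets (15.4%), beside 1.22% of all promoters, and a gene can have more than 1 promoter. These promoters were not limited to tested genes. The list was written from general knowledge of NR4A targets, so nothing is read from this share.

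Among 14 partners and coregulators of NR4A proteins, 13 were tested, 1 was called lower (7.69%) and 0 higher by edgeR at 8 cP in SC cells, beside 9.69% and 9.57% of all genes, and the median was 0.007. That gene was *RXRB*, a retinoid X receptor (log2 fold change -0.20, edgeR adjusted p = 0.00758), and its call was lost without replicate 1 of SC cells at 0.77 cP (adjusted p = 0.052) or replicate 3 of SC cells at 8 cP (adjusted p = 0.0628), which left 0 calls by edgeR. There were 2 calls without replicate 3 of SC cells at 0.77 cP and 3 without replicate 1 of shTRPV4 cells. In shTRPV4 against SC cells at 8 cP, 1 partner was called higher (7.69%) and 2 lower (15.4%), near the shares over all genes (9.02% and 11.0%). *RXRA*, a retinoid X receptor as well, was lower (-0.27, edgeR adjusted p = 0.0005), and so was the kinase *STK11*, which NR4A1 can bind in the nucleus (-0.18, edgeR adjusted p = 0.00631). The corepressor *NCOR1* was higher (0.16, edgeR adjusted p = 0.0386), and lost its call without any 1 of replicates 1 to 3 of SC cells at 8 cP or of replicates 1 and 2 of shTRPV4 cells, with adjusted p-values up to 0.154. Without replicate 3 of shTRPV4 cells 5 partners were called.

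All 3 NR4A genes had lower fold changes between viscosities than any other nuclear receptor gene tested. The family was selected on such values, so nothing is read from this contrast. Of 45 other nuclear receptor genes 31 were tested, and at 8 cP in SC cells 3 were called higher (9.68%) and 4 lower (12.9%), near the shares over all genes (9.57% and 9.69%), with a median log2 fold change of -0.036. The 7 calls became 3 without replicate 1 of SC cells at 0.77 cP, 4 without replicate 3 of those at 8 cP and 11 without replicate 1 of shTRPV4 cells. The clock repressor *NR1D1* fell from 14.3 ± 0.732 to 10.5 ± 0.17 CPM (SD, n = 3 each, log2 fold change -0.45, edgeR adjusted p = 0.00045). *NR1H3*, a receptor for oxysterols, fell (-0.44, edgeR adjusted p = 0.00212), and *NR2F2*, an orphan receptor of the COUP-TF group, rose (0.32, edgeR adjusted p = 0.000576). In shTRPV4 against SC cells at 8 cP 3 receptors were called higher (9.68%) and 7 lower (22.6%), beside 9.02% and 11.0% of all genes, with a median of -0.029, and 6 in all were called without replicate 3 of shTRPV4 cells. *RORA* had 2.34 ± 0.482 CPM in SC and 0.875 ± 0.0606 CPM in shTRPV4 cells (SD, n = 3 each, log2 fold change -1.42, edgeR adjusted p = 1.68e-05), a difference close in size to that of *NR4A2*. *NR2F1* (-0.54, edgeR adjusted p = 0.000102) and the mineralocorticoid receptor *NR3C2* (-0.65, edgeR adjusted p = 0.000108) were lower as well.

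**Figure D4:**
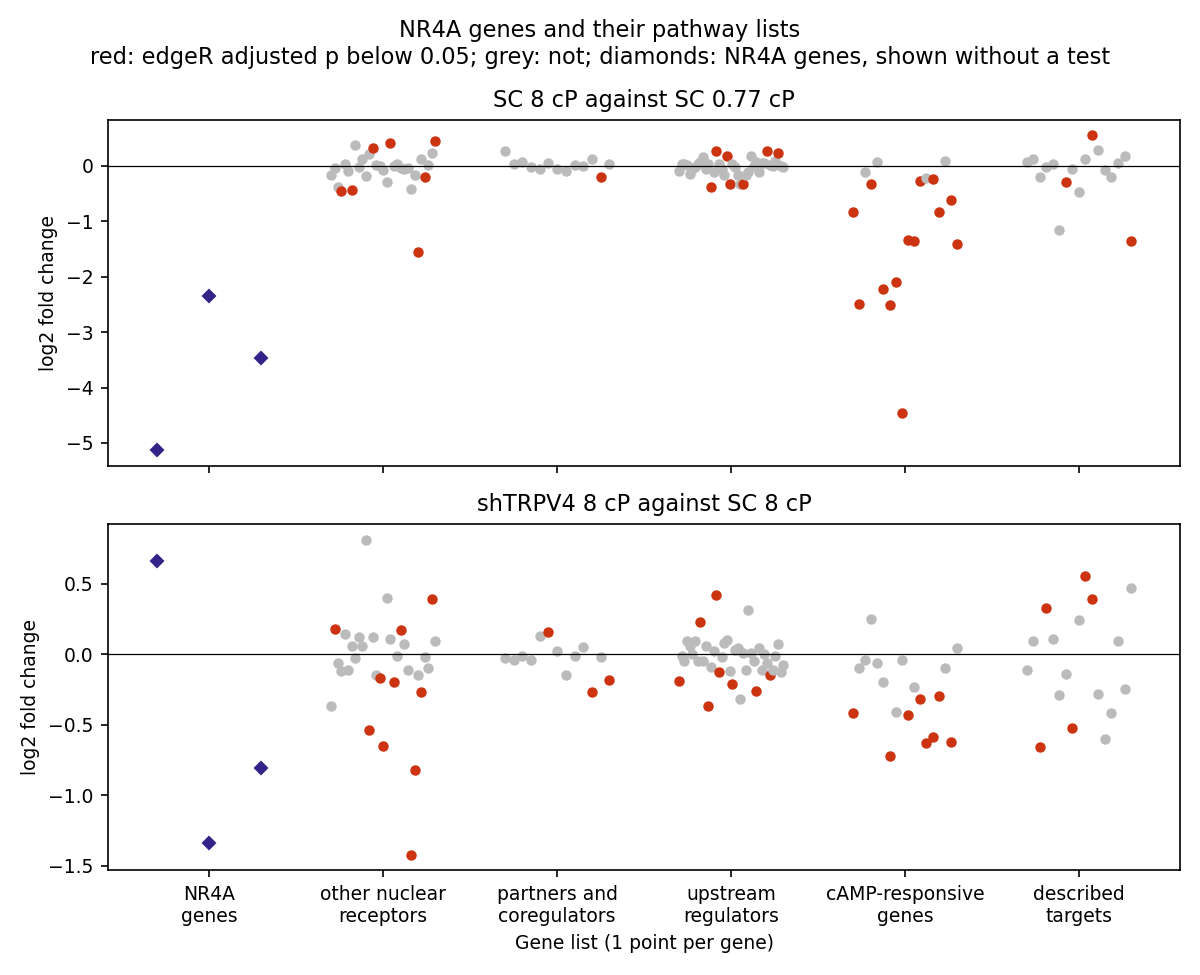
Log2 fold changes of the NR4A genes (diamonds, shown without a test) and of the tested genes of 5 lists (1 point per gene, red where the edgeR adjusted p was below 0.05, grey otherwise) for SC cells at 8 cP against 0.77 cP (top) and shTRPV4 against SC cells at 8 cP (bottom). The vertical scales of the panels differ. At the top 14 of 18 cAMP-responsive genes are red and below 0, while most points of the other lists lie near 0. The lists were written with earlier results of these samples known, so nothing is read from this contrast.

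Over the 9 samples the log2 levels of *NR4A1* and *NR4A3* had a Pearson correlation of 0.954, those of *NR4A2* and *NR4A3* of 0.973, and those of *NR4A1* and *NR4A2* of 0.883. The samples fall into 3 groups, so these values describe mostly the differences between groups. The 5 genes most like each member were taken by Pearson correlation over the 9 samples among the 13208 other genes whose mean reached 100 normalized counts in a group. For *NR4A1* they were *CSF2*, a cytokine gene, *SNAI2*, a factor of epithelial-mesenchymal transition, *PPP1R10*, *SGK1* and *FOSB*, with correlations from 0.9886 to 0.9950. Their log2 fold changes ran from -4.45 to -1.02 between viscosities and from -0.04 to 0.24 between the lines at 8 cP, against 0.66 for *NR4A1*. For *NR4A2* they were *WDR13*, the interferon-induced *OASL*, the clock kinase *CSNK1E*, the clock gene *PER1* and *KRCC1* (0.9888 to 0.9956). All 5 were lower at each step from SC cells at 0.77 cP to SC cells at 8 cP and to shTRPV4 cells on average, *OASL* for example at 61.7, 35.6 and 26.2 CPM. The second step was not called for *WDR13* (log2 fold change -0.08, edgeR adjusted p = 0.167) or *CSNK1E* (-0.09, edgeR adjusted p = 0.154). Their first steps were small as well (-0.14 and -0.19). For *NR4A3* they were the zinc finger gene *KLF10*, *SOX9*, *CSRNP1*, the long non-coding RNA *GASAL1* and the phosphatase *DUSP10* (0.9943 to 0.9971). *KLF10* had 197, 86.2 and 70.7 CPM in the 3 groups. No list of like genes shared a gene with another, and the changes of the like genes were smaller than those of the member in every case.

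**Figure D5:**
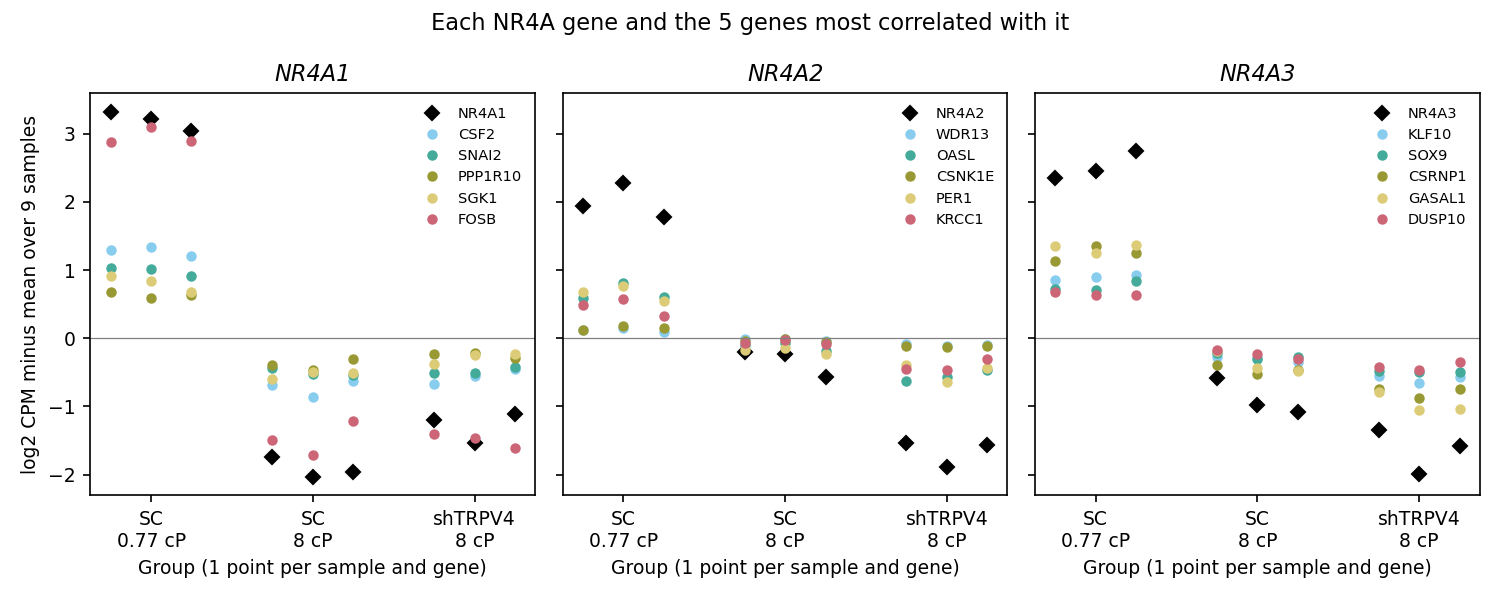
Log2 CPM of each NR4A gene (black diamonds) and of the 5 genes most correlated with it (coloured points) in each of the 9 samples, as the difference from the gene's mean over the samples. All genes are highest in SC cells at 0.77 cP, and the like genes span a smaller range than their member, although *FOSB* comes close to *NR4A1*.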

How the data were processed

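Strand-specific poly(A) libraries of the 9 samples were made, mapped to GRCh38.p13 with HISAT2 2.2.1 and counted per Ensembl gene with HTSeq 0.13.5 by the authors, who deposited the raw read counts of each sample without normalization. SAMtools 1.1.3 and DESeq are also named in the submitters' processing notes. Groups and replicate numbers come from the sample titles and treatments. The labels do not say whether the replicates were separate cultures, so that p-values measure only the spread between these samples, which may be technical. No replicate pair agreed within counting noise (chi-square per degree of freedom of at least 6.07).

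Of 60664 genes, 60463 were matched to a symbol in GENCODE release 44. In R 4.3.3, edgeR 4.0.16 was used with TMM scaling, filterByExpr (18264 genes) and its quasi-likelihood fit of 1 coefficient for each group in all 9 samples (common biological coefficient of variation 0.0633). The Benjamini-Hochberg method was applied over all genes tested, and a gene was called at an adjusted p below 0.05. CPM are counts relative to the TMM-scaled library, and log2 CPM for correlations used a prior count of 2. The floor of 3 counts covers counting error only.

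The members and the gene lists were chosen with earlier results of these data known. Named genes were the members, *TRPV4*, genes within 100 kb of a member, up to 4 called genes of each list with the smallest adjusted p in each of the first 2 comparisons, the 5 genes most correlated with each member, and cell type markers. Some genes that this rule selects are left out. *CREB1*, *BTG2*, uncalled cAMP-responsive genes and uncalled targets were named after their values were seen. The alternatives were DESeq2 1.42.0 with its own size factors, scaling by upper quartiles, all genes with a count, a minimum of 10 counts throughout, a fit to the 6 samples compared, a replicate block, other gene lengths, and each sample left out. The scripts were tested on simulated data.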

Additional observations from a re-analysis of the deposited data

How the results depend on the processing

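The log2 fold changes of the NR4A genes kept their sign in 135 of 135 alternative fits and moved by less than the spread between replicates. Leaving out 1 sample gave -5.22 to -5.06 for *NR4A1*, -2.43 to -2.18 for *NR4A2* and -3.63 to -3.33 for *NR4A3* between viscosities in SC cells. It gave 0.57 to 0.76, -1.45 to -1.24 and -0.98 to -0.63 for shTRPV4 against SC cells at 8 cP, and -4.56 to -4.37, -3.78 to -3.53 and -4.44 to -4.11 for the knockdown at 8 cP against the control at 0.77 cP. The call of *NR4A3* between the lines at 8 cP was also lost with only the 6 samples of the comparison and with the replicate block. Nothing is read from that call or its loss, because the genes were selected on these values. *NR4A3* rests on 12 to 44 counts per sample at 8 cP, the fewest of the 3 genes. Unlike the fold changes, the shares of the members in the family level moved with the gene length used.

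Calls over all genes ranged from 1409 (without replicate 1 of SC cells at 0.77 cP) to 4349 (without replicate 1 of shTRPV4 cells) around 3518 between viscosities, with 1927 without replicate 2 of SC cells at 0.77 cP and 1418 without replicate 3 of those at 8 cP. They ranged from 2179 (without replicate 2 of SC cells at 8 cP, and 2361 without replicate 1) to 3836 around 3649 between the lines. They ranged from 6318 to 7705 around 7752 for the knockdown at 8 cP against the control at 0.77 cP. Leaving out 1 sample gave between viscosities 3 to 11 calls for other nuclear receptors, 0 to 3 for partners, 4 to 9 for upstream regulators, 13 to 15 for cAMP-responsive genes and 2 to 5 for targets. Between the lines it gave 6 to 11, 2 to 5, 4 to 9, 7 to 10 and 2 to 6 in the same order. Partners had 2 calls in place of 1 between viscosities with DESeq2, with no filter on low counts and with only the 6 samples. Targets had 5 in place of 3 between viscosities with no filter, which tested 27 genes in place of 17, and 3 in place of 5 between the lines with only the 6 samples. Otherwise the cause of these shifts was not tested.

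Samples with the same replicate number did not deviate together (correlations of deviations from -0.055 to 0.090 in 9 pairs). With the replicate number as a block, 3475, 3607 and 7731 genes were called in the 3 comparisons, and *NR4A1* had log2 fold changes of -5.14, 0.66 and -4.48.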
